A study of Mus musculus with 2 samples.

Results

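Of the 55414 gene identifiers in the count tables, 132 carried symbols of the Cacn, Kcn and Scn families, which hold the voltage-gated calcium, potassium and sodium channel genes of the mouse. They were taken by symbol alone (Cacna, Cacnb or Cacng followed by a number or letters, Kcn followed by letters and a number, Scn followed by a number and a or b), with no use of their read counts. The families themselves were chosen with earlier results of these data known. There were 26 calcium, 92 potassium and 14 sodium channel genes. The name "voltage-gated" fits only part of them, since the rule also takes auxiliary subunits and the potassium channels that open without a voltage sensor, namely the inward rectifiers (Kcnj), the tandem-pore leak channels (Kcnk) and the SK and IK channels (Kcnn).

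RNA was sequenced from R1E mouse embryonic stem cells, labelled WT, in serum medium with leukemia inhibitory factor. The Adriamycin library came from cells given 0.5 µM of the drug for 8 h, and the untreated library was labelled 0 h. The drug, also called doxorubicin, traps topoisomerase II on DNA and so causes breaks. There was 1 library per condition and no untreated library at 8 h, so no test between conditions was possible, and the drug, the time in culture and any difference between the cultures cannot be told apart. The Adriamycin library held 38561292 reads and the untreated library 41820999.

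Voltage-gated channels consist of a pore-forming alpha subunit, which carries the voltage sensors and selects the ion, and of auxiliary subunits that set its gating and its transport to the cell surface. In nerve, heart and muscle, sodium channels start the action potential, calcium channels admit the calcium that triggers contraction or transmitter release, and potassium channels return the membrane to rest. Cells that do not fire action potentials also use potassium channels, to set the resting potential and volume.

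Levels are given as reads, as CPM (reads scaled to library size, with TMM factors) or, where genes are compared with each other, as RPKM (CPM per kilobase of exon). Ratios are Adriamycin over untreated on the log2 scale, and the ranges in parentheses after them are 95% intervals for counting error and no other error. A gene was measured where its mean over both libraries was at least 1 CPM, and was called higher or lower in the Adriamycin library where the ratio reached 2-fold. Of the 132 channel genes 70 were measured, and 33 of these were higher, 7 lower and 30 neither. Higher genes were thus 47.1% of the measured channel genes, and lower genes 10.0%. Among all 14871 measured genes, 17.0% were higher and 6.95% lower by the same rule. The median log2 ratio was 0.87 over the measured channel genes and -0.03 over all measured genes. With Cacng1, the only measured channel gene at 0 untreated reads, placed at its lower bound, the median of the channel genes was again 0.87. In bulk RNA, a change in the number of cells that express a gene and a change in RNA per cell cannot be told apart.

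The classes differed in their values. Of 9 measured sodium channel genes 6 were higher and 1 lower, with a median log2 ratio of 3.59. Of 18 measured calcium channel genes 8 were higher and 1 lower (median 0.80), and of 43 measured potassium channel genes 19 were higher and 5 lower (median 0.77). The summed level of the sodium channel genes was 262 CPM in the Adriamycin library, against 32.2 CPM in the untreated library. The calcium channel genes summed to 396 CPM with Adriamycin and 271 CPM untreated, and the potassium channel genes to 502 CPM with Adriamycin and 338 CPM untreated. The sodium median rests on 9 genes, and 4 of them had less than 1 CPM untreated and were measured only through the Adriamycin library. The other 5 had a median log2 ratio of 0.83. Likewise, 5 of the measured calcium and 13 of the measured potassium channel genes had less than 1 CPM untreated. The other 13 calcium channel genes had a median of 0.66, and the other 30 potassium channel genes a median of 0.02. Over all measured genes with at least 1 CPM untreated the median was -0.08.

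Markers of the labelled cell type and of excitable tissue were read in the same libraries, where 17.0% of all measured genes were higher and 6.95% lower. The marker lists were chosen with earlier results of these data known. All 10 pluripotent cell markers were measured, with a summed level of 4092 CPM in the Adriamycin library and 7365 CPM in the untreated library, and 6 of them were lower, among them Nanog (7436 reads with Adriamycin, 23059 untreated). Of 10 neuron markers 7 were measured, 1 was higher and 2 were lower, and they summed to 334 CPM with Adriamycin and 574 CPM untreated. Rbfox3, a gene of mature neurons, was the higher one (144 reads with Adriamycin, 51 untreated), and Nefl (115 with Adriamycin, 477 untreated) and Elavl3 (612 with Adriamycin, 1344 untreated) were the lower ones. Stmn2 (9564 reads with Adriamycin, 15081 untreated) and Tubb3 (2893 with Adriamycin, 5592 untreated) were abundant in both libraries, whereas Dcx had 0 reads in both and Snap25 had 14 with Adriamycin and 12 untreated. Of 10 heart and muscle markers 7 were measured, 3 higher and 1 lower, with a summed level of 70.9 CPM with Adriamycin and 43.3 CPM untreated. Per length the sum was 19.4 RPKM with Adriamycin and 21.7 RPKM untreated, the other way round. The higher genes were Myl2, a light chain of ventricular myosin (137 reads with Adriamycin, 7 untreated), Myh7, a cardiac myosin heavy chain (285 with Adriamycin, 29 untreated), and Actn2 (350 with Adriamycin, 170 untreated). Myl2 and Myh7 had less than 1 CPM untreated and were measured only through the Adriamycin library. The lower one was Tnni3, cardiac troponin I (113 with Adriamycin, 229 untreated), and Myl7 (248 with Adriamycin, 376 untreated) was neither. Myod1, the regulator of skeletal muscle, had 58 reads with Adriamycin and 0 untreated and was below the level of measurement. Of 10 fibroblast markers 7 were measured, 2 higher and none lower, with summed levels of 332 CPM with Adriamycin and 422 CPM untreated, and Col3a1, Dcn and Lum had 0 reads in both. The higher ones were Col1a1 (1295 reads with Adriamycin, 214 untreated) and Fbln2 (2177 with Adriamycin, 247 untreated). The part of these marker levels in the channel values was not tested.

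Sodium channels had the highest median log2 ratio of the classes. They include the beta subunits, single-pass membrane proteins with an immunoglobulin-like domain that modulate the pore and act in cell adhesion. Scn3b (chromosome 9, 40180513 to 40202914, GRCm39) had 4259 reads (105 CPM) in the Adriamycin library, against 149 reads (3.75 CPM) in the untreated library, a log2 ratio of 4.80 (4.57 to 5.05). In human cells SCN3B has been described as a p53-inducible gene. Scn4b had 380 reads with Adriamycin and 6 untreated (log2 ratio 5.84, 4.82 to 7.41). Scn2b went the other way, with 100 reads (2.47 CPM) with Adriamycin and 198 (4.98 CPM) untreated, a log2 ratio of -1.01 (-1.38 to -0.66), which sits at the 2-fold limit and leaves it with total-count scaling (-0.87).

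Per length, the share of Scn3b in the sodium channel RPKM was 24.0% with Adriamycin and 9.33% untreated. The share of Scn8a, the neuronal Nav1.6 gene, was 1.37% with Adriamycin and 8.42% untreated, although its reads were 702 with Adriamycin and 388 untreated (log2 ratio 0.83). The pore-forming genes together summed to 4.76 RPKM with Adriamycin and 1.10 RPKM untreated. Scn3b alone, an auxiliary gene, had 19.2 RPKM with Adriamycin and 0.686 RPKM untreated, so it lay above that sum in the Adriamycin library and below it in the untreated library.

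Among the pore-forming sodium channel genes, 5 of 10 were measured, 3 of these higher and none lower. Scn4a (chromosome 11, 106209418 to 106244114), the gene of the skeletal muscle channel Nav1.4, had 608 reads (15.0 CPM) with Adriamycin and 17 (0.427 CPM) untreated, a log2 ratio of 5.09 (4.44 to 5.92). Scn11a, which encodes Nav1.9 of pain-sensing neurons, had 147 reads with Adriamycin and 8 untreated (log2 ratio 4.09). Scn3a, a gene of the embryonic brain, had 67 reads with Adriamycin and 121 untreated, a log2 ratio of -0.88 (-1.33 to -0.44), short of the 2-fold rule. Scn10a, another sensory neuron gene, had 47 reads with Adriamycin and 0 untreated, at least 15.4-fold more against a floor of 3 untreated reads, but its mean lay below the level of measurement. The brain genes Scn1a (13 reads with Adriamycin, 4 untreated) and Scn2a (32 with Adriamycin, 18 untreated) were below the level, and Scn7a and Scn9a had at most 10 reads in either library.

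**Figure D1:**
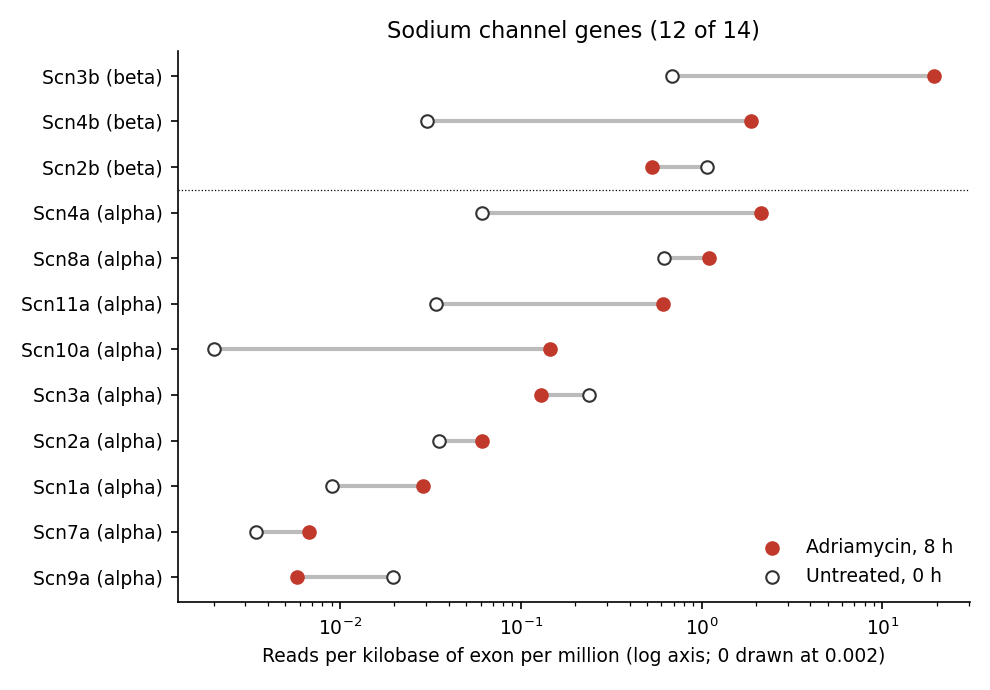
Level of 12 of the 14 sodium channel genes in RPKM (log axis, 0 drawn at 0.002), filled points for Adriamycin and open points for untreated, 1 library each. Of the genes drawn, Scn3b lies highest with Adriamycin, at 19.2 RPKM, and Scn2b, Scn3a and Scn9a are the genes whose filled point lies left of the open point.

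Sodium channel genes that lie side by side did not all share a direction. On chromosome 9, Scn2b (45029080 to 45041368, GRCm39) and Scn4b (45049693 to 45065450) lie on the same strand 8.32 kb apart, and Scn4b was higher while Scn2b was lower. Elsewhere on chromosome 9, Scn10a and Scn11a lie side by side, and both had more reads with Adriamycin. On chromosome 2, Scn3a had fewer reads with Adriamycin and its neighbour Scn2a more. The bases before the start sites of 3 of these genes, and of the potassium channel gene Kcnj15, are shown as examples of genes under 1 CPM in the untreated library and, for Scn2b, of a lower gene beside a higher one; they were picked after their values were seen. They are the 250 bases before the RefSeq start on GRCm38.p6, read 5′ to 3′ on the gene's strand, with CG dinucleotides in capitals: Scn4b at chr9:45138374-45138623 (plus strand), Scn2b at chr9:45117626-45117875 (plus strand), Scn4a at chr11:106349391-106349640 (minus strand) and Kcnj15 at chr16:95257308-95257557 (plus strand).
Scn4b: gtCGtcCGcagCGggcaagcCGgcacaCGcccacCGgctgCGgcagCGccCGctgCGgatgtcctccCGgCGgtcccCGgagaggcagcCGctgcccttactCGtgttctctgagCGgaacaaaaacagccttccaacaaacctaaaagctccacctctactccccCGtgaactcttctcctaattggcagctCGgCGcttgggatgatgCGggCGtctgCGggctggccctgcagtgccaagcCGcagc
Scn2b: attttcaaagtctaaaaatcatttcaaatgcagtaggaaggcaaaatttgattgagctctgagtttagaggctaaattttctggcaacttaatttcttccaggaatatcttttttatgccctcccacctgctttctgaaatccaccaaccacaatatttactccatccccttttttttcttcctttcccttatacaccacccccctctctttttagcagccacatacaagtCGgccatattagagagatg
Scn4a: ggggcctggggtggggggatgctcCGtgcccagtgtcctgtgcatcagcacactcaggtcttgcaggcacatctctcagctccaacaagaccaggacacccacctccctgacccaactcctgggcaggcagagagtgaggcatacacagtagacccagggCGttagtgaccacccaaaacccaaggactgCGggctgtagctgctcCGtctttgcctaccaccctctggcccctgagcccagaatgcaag
Kcnj15: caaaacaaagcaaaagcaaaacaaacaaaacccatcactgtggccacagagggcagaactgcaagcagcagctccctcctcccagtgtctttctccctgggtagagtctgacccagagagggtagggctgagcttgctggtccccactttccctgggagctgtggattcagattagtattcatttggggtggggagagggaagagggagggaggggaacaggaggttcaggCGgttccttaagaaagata
The Scn4b window held 23 CG dinucleotides, against 1 in Scn2b, 4 in Scn4a and 1 in Kcnj15, so higher genes occurred with both CG-rich and CG-poor windows.

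Promoter windows from RefSeq (GRCm38.p6, 250 bases before to 50 after the start) were found for 97 of the 132 channel genes, 133 windows in all. The median ratio of observed to expected CpG was 0.504 over the 22 higher genes with a window, 0.213 over the 5 lower, 0.618 over the 19 neither and 0.414 over the 51 below the level of measurement. It was 0.384 over all 32851 windows of the table. The higher genes thus had no richer windows than the genes that were neither. By class the median was 0.613 for calcium, 0.450 for potassium and 0.335 for sodium channel genes. On either strand, GGGCGG, the core of the GC box, was in 60 channel gene windows (45.1%, against 35.7% of all windows). TATAAA was in 7 (5.26%, against 13.6%), 1 of them that of Kcnj15. The Kcnj15 match is not within the 250 bases shown above, so it reaches into the 50 bases after the start. The full p53 response element, searched on both strands with a spacer of at most 3 bases, was in none of the 133 windows. It was in only 0.0183% of all windows, too rare for its absence here to carry information. Its half-site was in 7 channel gene windows (5.26%, against 8.36% of all windows). Scn3b had no window and was not searched. A match of letters is a description of the window only.

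Among the calcium channels, 9 of 10 alpha1 genes were measured, 5 higher and none lower. Of these, Cacna1c, Cacna1d, Cacna1e and Cacna1i had less than 1 CPM untreated and were measured only through the Adriamycin library, so they had to lie above 0. The other 5 had a median log2 ratio of 0.86, with 2 higher. Of the 16 auxiliary genes 9 were measured, 3 higher and 1 lower, and the 8 of them with at least 1 CPM untreated had a median of -0.21, with 2 higher and 1 lower. Cacna1e, the R-type Cav2.3 gene, had 77 reads with Adriamycin and 6 untreated, a log2 ratio of 3.55 (2.47 to 5.14). Cacna1b, the N-type Cav2.2 channel of nerve terminals, had 1277 reads (31.5 CPM) with Adriamycin and 283 (7.12 CPM) untreated (log2 ratio 2.14, 1.96 to 2.34). Both belong to the channels that drive transmitter release, as does the P/Q-type gene Cacna1a, which had the most reads of the alpha1 genes, 2912 with Adriamycin and 1578 untreated. Cacna1a had a log2 ratio of 0.86 and was higher by the 2-fold rule only with total-count scaling (1.00).

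The T-type genes, whose channels open at low voltage, were ordered differently. Cacna1i had 192 reads (4.74 CPM) with Adriamycin and 23 (0.578 CPM) untreated, a log2 ratio of 3.01 (2.41 to 3.73). Cacna1g had 376 reads with Adriamycin and 78 untreated (2.23), and Cacna1h 1503 with Adriamycin and 934 untreated (0.66), short of 2-fold. So 2 of the 3 T-type genes were higher, and the one with most untreated reads was neither. Of the L-type genes, Cacna1d had 97 reads with Adriamycin and 23 untreated (2.03). Its exons overlap those of Chdh on the opposite strand (124 reads with Adriamycin, 10 untreated), and the counting did not use strand, so reads of the pair cannot be told apart. The cardiac gene Cacna1c had 47 reads with Adriamycin and 36 untreated (0.35), and the skeletal muscle gene Cacna1s 977 with Adriamycin and 569 untreated (0.75). The retinal gene Cacna1f was below the level, with 17 reads with Adriamycin and 6 untreated.

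Of the auxiliary calcium channel genes, the beta subunits, cytoplasmic proteins that carry alpha1 to the membrane, were neither. Cacnb1 had 723 reads with Adriamycin and 1061 untreated, a log2 ratio of -0.58 (-0.72 to -0.44), and Cacnb3 had 1082 with Adriamycin and 1198 untreated, -0.17 (-0.29 to -0.05). These were the beta subunit genes with reads to measure, and Cacnb2 and Cacnb4 had at most 25 reads in either library. Of the alpha2-delta genes, the targets of gabapentin-type drugs, Cacna2d2 was higher (1152 reads with Adriamycin, 335 untreated, log2 ratio 1.75), and Cacna2d1 was neither (227 reads with Adriamycin, 265 untreated, -0.25).

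The gamma genes, which include the TARP proteins that traffic AMPA-type glutamate receptors, spanned the widest range of the calcium class. Cacng1, the gamma subunit of the skeletal muscle channel, had 116 reads (2.86 CPM) with Adriamycin and 0 untreated. Against a floor of 3 untreated reads it was at least 37.9-fold higher. Cacng6 had 1178 reads (29.1 CPM) with Adriamycin and 417 (10.5 CPM) untreated, a log2 ratio of 1.47 (1.31 to 1.63). Cacng7, a TARP gene, had the highest calcium channel level per length, 38.6 RPKM with Adriamycin and 37.6 RPKM untreated, and the closest values of the class (3818 reads with Adriamycin, 3649 untreated, log2 ratio 0.04, -0.03 to 0.10). The TARP gene Cacng4 was the lower calcium channel gene, with 36 reads with Adriamycin and 87 untreated, -1.29 (-1.90 to -0.72). Cacng1 and Cacng4 lie 15.8 kb apart on chromosome 11, and Cacng7, Cacng8 and Cacng6 in a row on chromosome 7, so both gamma gene clusters held genes with different calls.

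**Figure D2:**
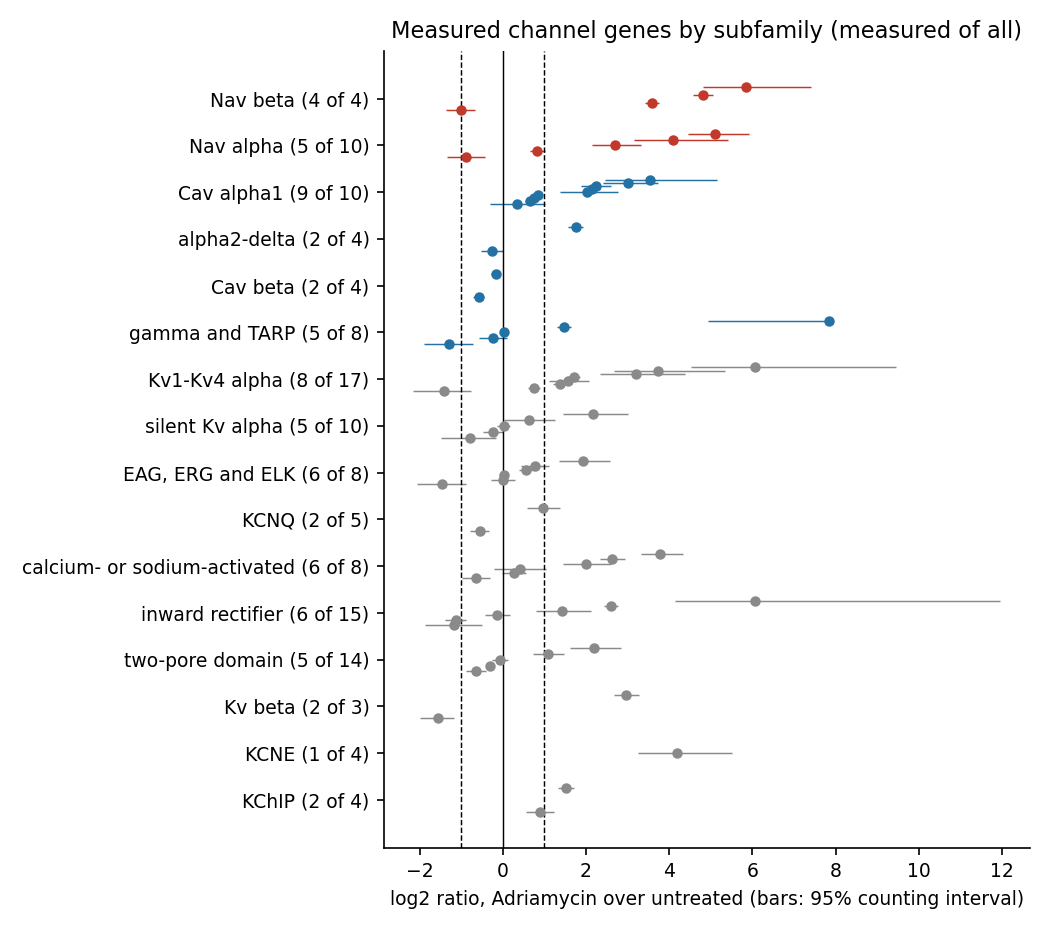
Log2 ratio, Adriamycin over untreated, of each measured channel gene by subfamily, with its 95% counting interval; dashed lines mark 2-fold, and the interval of Cacng1 (at 7.85, a value set by the pseudocount) has no upper end. The 2 measured Cav beta genes lie left of 0, and the sodium channel beta subunit genes Scn3b and Scn4b lie at 4.80 and 5.84; no BK beta gene was measured.

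Potassium channels made up 43 of the 70 measured channel genes, 19 of the 33 higher ones and 5 of the 7 lower ones. Of the measured potassium channel genes 44.2% were higher and 11.6% lower, against 17.0% and 6.95% of all measured genes. Of the higher genes here and below, 11 had less than 1 CPM untreated and were measured only through the Adriamycin library. These were Kcna3, Kcna6, Kcnc1, Kcne1, Kcng2, Kcnh1, Kcnj14, Kcnj15, Kcnk12, Kcnn3 and Kcnn4. Of all measured genes at that untreated level 84.8% were higher. The 30 potassium channel genes with at least 1 CPM untreated had 8 higher and 5 lower, against 12.6% and 7.4% of all such genes. Among the pore-forming Kv1 to Kv4 genes, the classical delayed rectifiers and A-type channels, 8 of 17 were measured, 6 higher and 1 lower. Kcna6, a Shaker-type Kv1 gene, had 171 reads (4.22 CPM) with Adriamycin and 2 (0.0503 CPM) untreated, a log2 ratio of 6.08 (4.52 to 9.45). Kcnc1, the Kv3.1 gene of fast-firing neurons, had 88 reads with Adriamycin and 6 untreated, 3.74 (2.67 to 5.33), and Kcna3, the Kv1.3 gene known from T cells, had 98 with Adriamycin and 10 untreated (3.20). Kcnc4, another Kv3 gene, had 150 reads with Adriamycin and 49 untreated (1.58). Kcnd1, an A-type gene, was neither (1130 reads with Adriamycin, 656 untreated, 0.76). Kcna7 was the lower gene of this subfamily, with 26 reads with Adriamycin and 69 untreated, -1.42 (-2.15 to -0.77). Kcna5 and Kcna1, which lie beside Kcna6 on chromosome 6, were below the level. Kcna5 had 2 reads with Adriamycin and 16 untreated, and Kcna1 had 18 with Adriamycin and 9 untreated.

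The silent subunits (Kcnf, Kcng, Kcns and Kcnv), which form channels only together with Kv2 subunits, were mostly neither. Of 10 genes 5 were measured and 1 was higher, Kcng2 with 84 reads with Adriamycin and 18 untreated (log2 ratio 2.16). Kcng1 had 680 reads with Adriamycin and 658 untreated (0.02), and Kcns3 had 261 with Adriamycin and 301 untreated (-0.23). In the EAG, ERG and ELK family, 6 of 8 genes were measured, 1 higher and 1 lower. Kcnh1 (EAG1) was higher (117 reads with Adriamycin, 30 untreated, 1.92), Kcnh4 (an ELK gene) was lower (35 with Adriamycin, 95 untreated, -1.46, -2.07 to -0.90), and Kcnh2, the ERG1 gene of cardiac repolarization, had 1287 reads with Adriamycin and 1246 untreated (0.02). Of the 5 KCNQ genes, the source of the M-current, 2 were measured and both were neither.

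The group made up of potassium channels opened by calcium or sodium and of their relative Kcnu1 had 6 of 8 genes measured, 3 higher and none lower. Kcnn4, the intermediate-conductance channel of blood cells and epithelia, had 511 reads (12.6 CPM) with Adriamycin and 36 (0.905 CPM) untreated, a log2 ratio of 3.78 (3.31 to 4.33). Kcnt1, the sodium-activated Slack channel, had 704 reads with Adriamycin and 111 untreated, 2.63 (2.35 to 2.94), and the SK gene Kcnn3 had 136 with Adriamycin and 33 untreated (2.00). The other SK genes did not follow Kcnn3. Kcnn1 had 121 reads with Adriamycin and 185 untreated (-0.64), and Kcnn2 238 with Adriamycin and 194 untreated (0.27). Kcnma1, the BK channel gene, was below the level with 23 reads with Adriamycin and 13 untreated.

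Inward rectifiers, which hold the resting potential, gave 3 higher and 2 lower genes of 6 measured among 15. Kcnj4 (Kir2.3) was the most abundant higher one, with 2267 reads (26.0 RPKM) with Adriamycin and 366 (4.28 RPKM) untreated, a log2 ratio of 2.60 (2.44 to 2.77). Kcnj15 (Kir4.2) had 102 reads with Adriamycin and 1 untreated, 6.07 (4.13 to 11.96), so its size is poorly set. In the same Kir2 group as Kcnj4, Kcnj12 (Kir2.2) was lower, with 184 reads with Adriamycin and 395 untreated, -1.13 (-1.39 to -0.87), and Kcnj2 (Kir2.1) had 12 reads in each. With total-count scaling Kcnj12 was short of 2-fold (-0.98). Kcnj3, a subunit of the G protein-gated channels, had 28 reads with Adriamycin and 62 untreated, -1.16 (-1.87 to -0.51).

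The tandem-pore leak channels had 5 of 14 genes measured, 2 higher and none lower. Kcnk5 (TASK-2), an acid-sensitive channel, was the potassium channel gene with most reads in both libraries, 3520 (25.5 RPKM) with Adriamycin and 4298 (31.7 RPKM) untreated, a log2 ratio of -0.32 (-0.38 to -0.25). It held 20.8% of the potassium channel RPKM with Adriamycin and 37.3% untreated. Kcnj4 held 21.2% with Adriamycin and 5.02% untreated, so these 2 genes stood level per length in the Adriamycin library and apart in the untreated library. Kcnk12 (136 reads with Adriamycin, 29 untreated, 2.18) and Kcnk4, the mechanosensitive TRAAK channel (198 with Adriamycin, 91 untreated, 1.09), were the higher ones, and Kcnk4 was short of 2-fold with upper-quartile scaling (0.97).

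Potassium channel auxiliary genes were few. Kcnab2, a cytoplasmic Kv beta subunit, had 815 reads (20.1 CPM) with Adriamycin and 102 (2.56 CPM) untreated, a log2 ratio of 2.96 (2.67 to 3.28). Its relative Kcnab3 was the lower gene with the interval farthest from 0, with 68 reads with Adriamycin and 198 untreated, -1.56 (-1.99 to -1.17). The 2 Kv beta genes measured thus lay on opposite sides. Kcne1, the small subunit that slows Kcnq1 channels in the heart and inner ear, had 157 reads with Adriamycin and 8 untreated, 4.18 (3.25 to 5.50), while Kcnq1 itself had 19 reads with Adriamycin and 12 untreated and was below the level. Kcnip3, a calcium sensor that binds Kv4 subunits and, under the name DREAM, also DNA, had 830 reads with Adriamycin and 284 untreated (1.52), and Kcnip2 had 218 with Adriamycin and 115 untreated (0.89). Kcnip2 passed 2-fold with total-count scaling (1.04). The BK beta genes were all below the level, among them Kcnmb1 of smooth muscle with 45 reads with Adriamycin and 5 untreated.

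**Figure D3:**
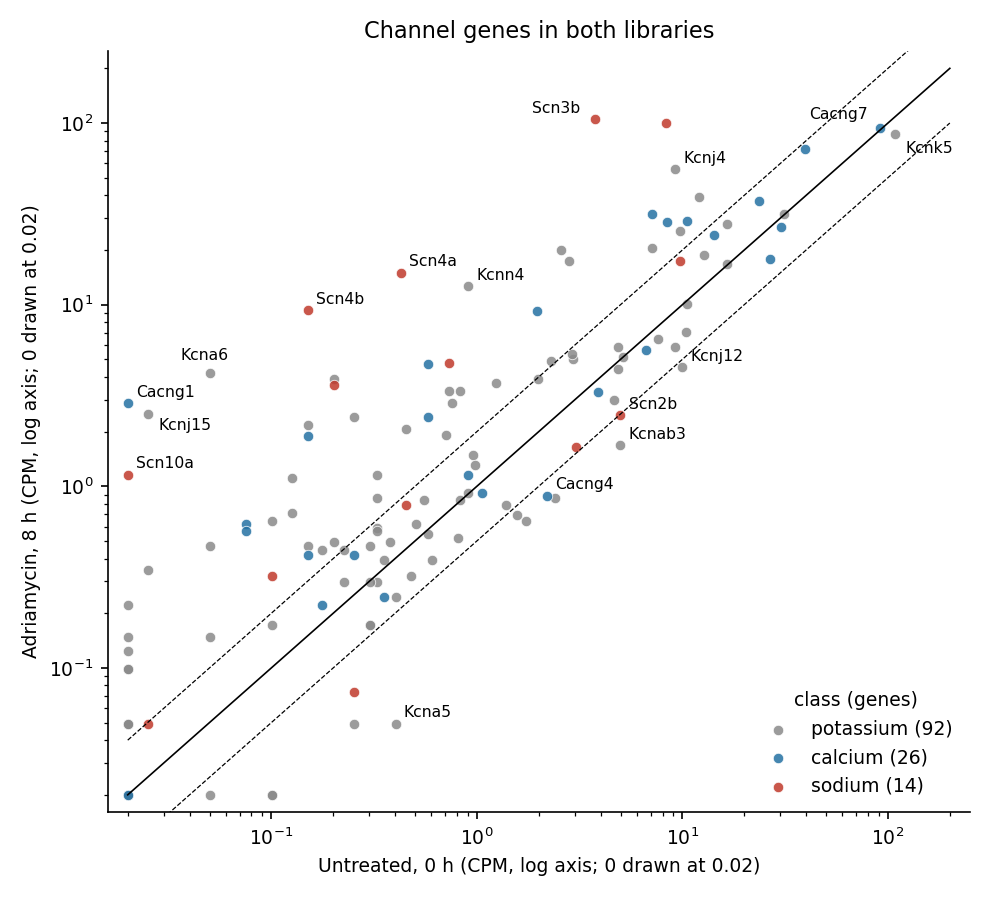
CPM in the Adriamycin library (vertical) against the untreated library (horizontal) for the 132 channel genes, both axes logarithmic with 0 drawn at 0.02, coloured by class; the solid line marks equal levels and the dashed lines 2-fold. Scn3b lies far above the line at 105 CPM with Adriamycin, while Cacng7 and Kcnk5, the channel genes with most CPM untreated, lie near it.

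The channel genes were weakly expressed in these cells, and such genes were called more often in general. The median of the mean level was 4.71 CPM over measured channel genes and 23.9 CPM over all measured genes. In the lowest band, 1 to 5 CPM on average, 19 of 36 channel genes were higher and 6 lower, while 31.8% of all genes in that band were higher and 9.51% lower. From 5 to 20 CPM, 10 of 22 channel genes were higher and 1 lower, against 19.9% and 6.12% of all genes. At 20 CPM or more, 4 of 12 were higher and none lower, against 9.28% and 6.19% of all genes. In each band the share of higher channel genes was above that of all genes, and in the band from 1 to 5 CPM so was the share of lower ones.

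**Figure D4:**
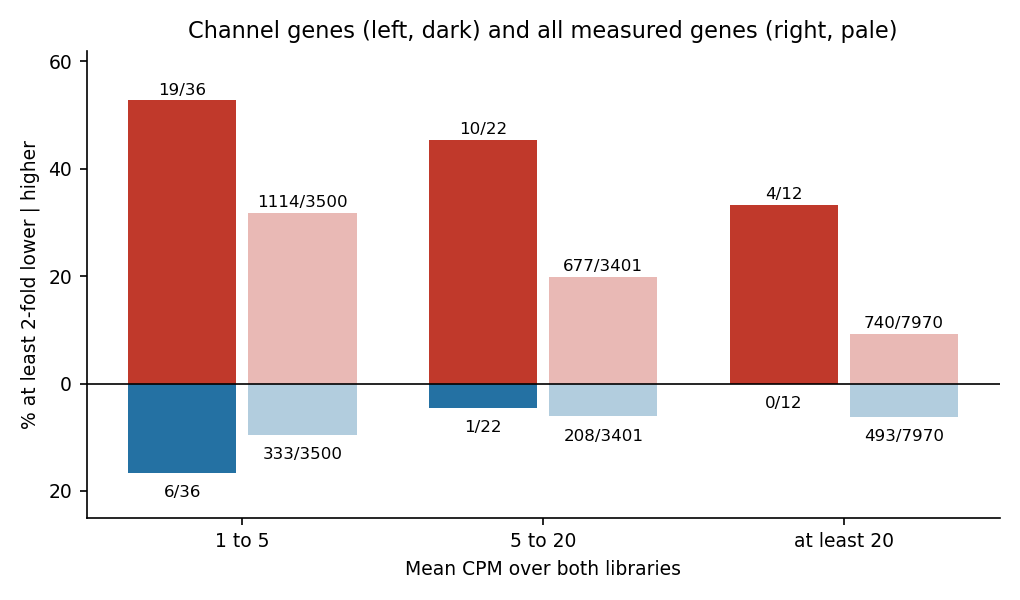
Percent of genes at least 2-fold higher (above 0) or lower (below 0) in the Adriamycin library by mean CPM, dark bars for channel genes and pale bars for all measured genes, with the counts at each bar. The dark upward bars stand above the pale ones in each of the 3 bands, with 19 of 36, 10 of 22 and 4 of 12 channel genes higher.

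The level of measurement itself shaped part of the count. Of the measured channel genes 22 had less than 1 CPM in the untreated library and reached the level through the Adriamycin library, so they had to differ. Of these 22, 19 were higher and none lower, against 84.8% higher and 0.0% lower of all 902 measured genes under 1 CPM untreated, a share near the background. The other 48 had at least 1 CPM untreated, and 14 of them were higher and 7 lower, with a median log2 ratio of 0.15. Of all 13969 measured genes with at least 1 CPM untreated, 12.6% were higher and 7.4% lower, with a median of -0.08. By class the 48 genes were 13 calcium (4 higher, 1 lower, median 0.66), 30 potassium (8 higher, 5 lower, median 0.02) and 5 sodium channel genes (2 higher, 1 lower, median 0.83). Just outside the level lay Kcnk3 (mean 0.834 CPM), Kcnq5 (0.909) and Cacng5 (0.984), and just inside it Cacna1e (1.02), Cacna1c (1.03) and Kcng3 (1.09). Of the 62 channel genes below the level, Cacng3, Kcna10, Kcne4, Kcnj1 and Kcnk15 had 0 reads in both libraries. Of the 57 with reads, 40 had more CPM with Adriamycin and 17 more untreated, a share of 70.2%, against 57.5% of the 14252 such genes overall. Among those with at least 10 reads over both libraries it was 30 of 44 (68.2%), against 60.2% of 5967 genes.

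Genomic length was compared because many channel genes are long. Of channel genes that span less than 30 kb, 13 of 28 were higher and 4 lower, against 16.2% and 7.39% of all measured genes of that span. From 30 to 100 kb, 13 of 27 were higher and 2 lower, against 17.4% and 6.23%. At 100 kb or more, 7 of 15 were higher and 1 lower, against 20.5% and 6.41%. Across the 70 measured channel genes, which share both libraries, Pearson's r between log10 span and log2 ratio was -0.04 and Spearman's rho 0.05. Of 13 channel genes over 400 kb 6 were measured, and Cacna1d and Cacna1e were higher. Both had less than 1 CPM untreated and were measured only through the Adriamycin library. The other measured ones, Cacna1c, Cacna2d1, Kcnh7 and Kcnn2, were neither.

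**Figure D5:**
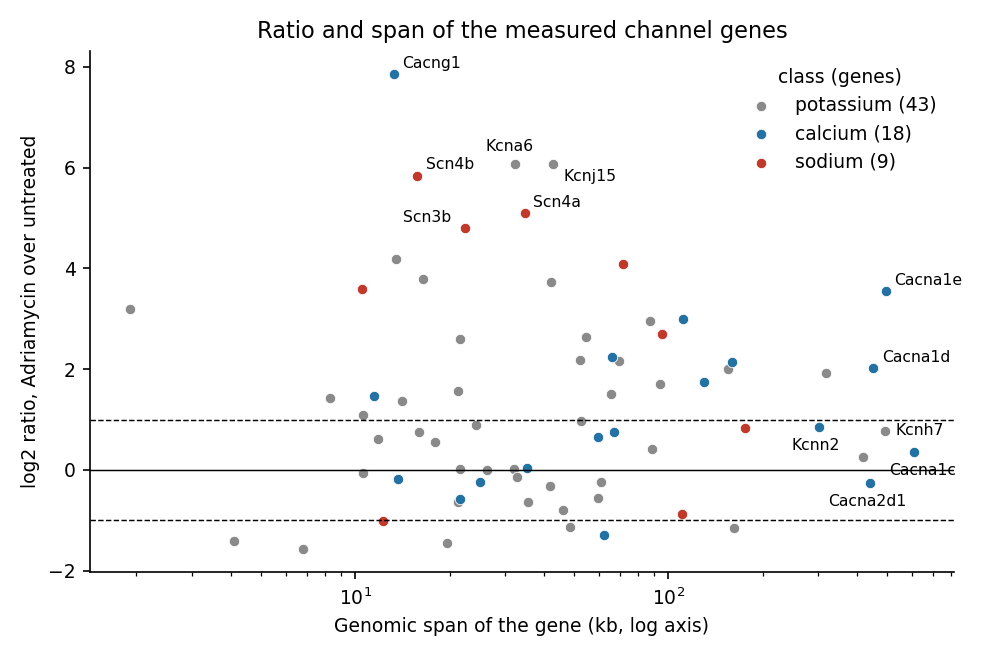
Log2 ratio, Adriamycin over untreated, against genomic span in kb (log axis) for the 70 measured channel genes, coloured by class, with dashed lines at 2-fold. Points beyond 2-fold occur from Kcna3 (1.90 kb) to Cacna1e (494 kb), and the longest measured gene, Cacna1c (610 kb), lies within 2-fold. Pearson's r was -0.04.

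Neighbouring genes were looked at for shared differences. Of the 33 higher channel genes 8 (24.2%) had a higher gene within 10 kb, against 23.4% of all 2531 higher genes, so this share was near the background. Exons of another gene overlapped those of 8 higher channel genes, and the partners with most reads were Chdh, described above, and Catsperz, which overlaps Kcnk4 on the same strand (162 reads with Adriamycin, 119 untreated). Of the channel genes, 38 lay in 16 clusters with gaps of at most 200 kb.

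Other ion channel genes outside the symbol rule were read beside these, in lists chosen with earlier results of these data known. Over all measured genes, 17.0% were higher and 6.95% lower. Of measured genes with less than 1 CPM untreated, which reach the level only through the Adriamycin library, 84.8% were higher. Of 47 other cation channel genes (TRP, P2X, acid-sensing, epithelial sodium, ryanodine and related channels) 32 were measured, 21 higher and none lower, with a median log2 ratio of 1.45. Among them were P2rx6, an ATP-gated channel gene (407 reads with Adriamycin, 5 untreated), and Trpm2, a channel gated by ADP-ribose (490 with Adriamycin, 22 untreated). Both had less than 1 CPM untreated, as did Asic2, Asic3, Itpr2, P2rx1, Scnn1a, Scnn1b, Trpm6 and Trpv3 of the higher genes. Of 18 voltage-sensing or cyclic nucleotide-gated channel genes 10 were measured, 5 higher and none lower (median 0.95), among them the pacemaker channel gene Hcn4 (227 reads with Adriamycin, 18 untreated) and Cnga3 of cone photoreceptors (3350 with Adriamycin, 187 untreated). Of these 2, Hcn4 had less than 1 CPM untreated. Chloride and anion channel genes had a median of 0.20, with 4 higher and 3 lower of 23 measured, and 3 of the volume-regulated Lrrc8 genes were the lower ones. Their share of higher genes was near that of all measured genes, and the higher genes Ano7 and Best1 had less than 1 CPM untreated. Of 26 genes for channel partners and regulators 16 were measured, 3 higher and 1 lower (median 0.02). The higher ones were Ank3, the ankyrin that anchors sodium channels at the axon initial segment (1549 reads with Adriamycin, 732 untreated), and the genes of proteins that assemble with the leak channel Nalcn, Unc79 (101 with Adriamycin, 18 untreated) and Unc80 (65 with Adriamycin, 20 untreated). Unc79 and Unc80 had less than 1 CPM untreated. The median of this list and its share of higher genes were near those of all measured genes.

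Genes of the REST complex, a repressor that silences neuronal genes including sodium channels in cells outside the nervous system, were also read. Their list, too, was chosen with earlier results of these data known. All 10 were measured, none was higher and 3 were lower, with a median log2 ratio of -0.58. Of all measured genes 17.0% were higher and 6.95% lower, and of those with a mean of at least 20 CPM 9.28% and 6.19%. Rest had 7811 reads with Adriamycin and 15118 untreated (-0.98), and among its corepressors Sin3a had 6112 reads with Adriamycin and 17853 untreated, and Rcor2 had 10562 with Adriamycin and 21622 untreated. Their part in the channel values was not tested.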

How the data were processed

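RNA was sequenced from 1 Adriamycin and 1 untreated culture of R1E cells. The deposited tables give unnormalized read counts for each gene. Per the file headers, the authors counted paired reads over exons of annotation release 105 (GRCm39) with featureCounts 2.0.3, with no strand option and mates counted separately. The submitters' processing notes list HISAT2 2.0.4, Trim Galore 0.3.4, FastQC, DESeq2 1.16.1, another counter version (featureCounts 1.6.0) and other builds (mm9 and mm10) than the headers. Positions are those of the tables, on GRCm39. Symbols came from GENCODE M21 by Ensembl identifier (52081 of 55414 matched). No column of sample values was left unused (0 such columns).

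From the deposited counts, TMM factors (edgeR 4.0.16, R 4.3.3) of 1.05 for the Adriamycin and 0.951 for the untreated library scaled the totals, and ratios carried a pseudocount of 0.5 read. Scipy 1.17.1, with pandas 2.3.3 and numpy 2.4.6 in Python 3.11.15, gave exact conditional binomial (Clopper-Pearson) 95% intervals, checked on simulated counts. PCR copies and mates are not independent molecules, so these are too narrow. A count of 0 allows 3 reads (0.0740 CPM with Adriamycin, 0.0754 CPM untreated). With 1 library per condition there is no test and no p-value. Genes given full values were, per class, the measured ones whose interval lay farthest from 0 (up to 4 higher and 3 lower for calcium, 8 and 5 for potassium, 3 and 2 for sodium), the 2 with most RPKM, and those with 0 reads in 1 library and at least 20 in the other. The other genes appear as examples of their subfamily. Some genes that the rule names are left out of the text. Members and lists were chosen with earlier results of these data known. Other scalings (total counts, upper quartile, DESeq2 1.42.0 size factors), level limits, a pseudocount of 2, a 1.5-fold rule and genes without exon overlap were tried. RefSeq promoter windows on GRCm38.p6 were matched by symbol.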

Additional observations from a re-analysis of the deposited data

How the results depend on the processing

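With DESeq2 size factors, the counts of higher and lower genes over all channel genes and in each class were the same as with TMM. Total-count scaling shifted the median log2 ratio of all measured genes to 0.12 and upper-quartile scaling to -0.15, against -0.03 with TMM. Relative to that shift the channel genes' median stayed at 0.90 with total counts, 0.88 with upper quartiles and 0.90 with TMM. Of the genes given full values, only Cacng7, near 0 in the first place, changed sign under a scaling or pseudocount (log2 ratio 0.04 with TMM, -0.08 with upper quartiles).

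Counts moved by more than 1.5 times as follows. With a mean of at least 5 CPM, 14 channel genes were higher and 1 lower of 34 measured (41.2% higher, against 12.5% of all genes), made up of 4 higher and 0 lower calcium, 7 higher and 1 lower potassium, and 3 higher and 0 lower sodium channel genes; fewer genes enter by construction. At 1.5-fold, 11 channel genes were lower, 8 of them potassium and 2 sodium channel genes. The lower count of the sodium class was 0 with total counts and 0 with a pseudocount of 2, since Scn2b then missed 2-fold (-0.87 and -0.999). The remaining 51 counts stayed within 1.5 times of the values given. Without genes whose exons overlap another gene, 25 were higher and 6 lower of 51.

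All 40 called genes had counting intervals off 0, also with counts divided by 2. The level of measurement and the 2-fold rule together nearly fix that outcome. Of the called genes, 31 higher and 1 lower had intervals wholly past 2-fold (30 and 0 with counts divided by 2). With 1 library per condition no replicate could be left out, and no paired analysis was possible because each condition has 1 library. Channel genes below the level of measurement had at most 47 reads in a library, too few to size most ratios.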
